A study of Mus musculus with 8 samples.

Results

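Imprinted genes are transcribed mainly from the allele of 1 parent, and 41 of them were followed here in mouse embryonic stem cells (mESCs) exposed to morphine. The members were the loci of the RNA-Seq count table whose most frequent gene name was on a list of known imprinted genes. All 41 had a locus, among 31168 distinct gene names in the table, and 57 of the 44396 rows of the table carried one of their names. Where a gene had several rows, the one with the most counts, then the longest, was used. This concerned 8 members, and shorter rows of Kcnq1, Magel2, Igf2, Cdkn1c, Slc22a18 and Zim1 held fewer counts than the row used.

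The cells were Oct4-GFP mESCs, pluripotent cells of the early embryo that carry a fluorescent reporter of Oct4, grown feeder-free on gelatin. The study's methods describe a LIF + 2i medium, with leukaemia inhibitory factor, PD0325901 and CHIR99021. Control cultures received the saline (NaCl) vehicle and treated cultures 10 uM morphine, an opioid receptor agonist, both for 24 h. The 8 libraries were 2 control and 2 morphine libraries of H3K27me3 ChIP-Seq and 2 control and 2 morphine libraries of polyA RNA-Seq. The study's methods call the ChIP-Seq libraries of a condition biological replicates. For the RNA-Seq libraries no source used here says whether they came from separate cultures, so their p-values measure only the spread between these libraries, which may be technical. Reads and peaks carried no information on the parental allele, so every value is a sum over both alleles.

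Most imprinted genes lie in domains that share an imprinting control region, a stretch of DNA methylated on 1 parental allele in the germ line. The factor ZFP57, with TRIM28 and SETDB1, protects that methylation after fertilization, and embryonic stem cells depend on it. Within several domains a long non-coding RNA from 1 allele silences its neighbours in cis, and Polycomb Repressive Complex 2 (PRC2), through its enzyme EZH2, places H3K27me3 on silent promoters. A few genes, Sfmbt2 and Slc38a4 among them, are known for imprinting that is inherited from the oocyte as H3K27me3 and does not begin with DNA methylation. Whether these mESCs keep such imprinting was not tested.

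The RNA-Seq libraries held 25081266 to 29531096 counts, of which the 41 members took 0.288 to 0.296%. The peak lists held 8681 to 13778 peaks. The cells had the RNA of mESCs. The 7 stem cell markers summed to 4037 to 4218 CPM (counts per 1000000 counts of the scaled library total) in each library, against 10.3 to 12.5 CPM for 6 fibroblast markers, 12.7 to 15.2 CPM for 6 trophoblast markers, 39.7 to 42.4 CPM for 6 primitive endoderm markers and 128 to 141 CPM for 4 neural markers. Col3a1, a fibroblast collagen, had at most 1 count per library. None of these markers passed the test between morphine and control (Pou5f1 came nearest, with an adjusted p of 0.0525). In such bulk samples fewer cells of a type and less RNA per cell cannot be told apart.

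The promoters at which the peak data below turn are shown first, with that of Meg3 as a promoter of a strongly expressed member without any peak. Each is 300 bases of the RefSeq start (250 before to 50 after), from GRCm38.p6, the build called mm10, written 5' to 3' on the strand of the gene. Capitals mark the letters TGCCGC, the core bound by ZFP57 when methylated, searched on both strands (GCGGCA where they lie on the other strand), and no matches overlapped in these 7 promoters. The Usp29 promoter, chr7:6730333-6730632, is divergent with that of Peg3 and overlaps it. The others are those of Mest at chr6:30733256-30733555, Airn at chr17:12741061-12741360, Igf2r at chr17:12769657-12769956, Nnat at chr2:157559828-157560127, Inpp5f at chr7:128611115-128611414 and Meg3 at chr12:109540746-109541045.
Usp29: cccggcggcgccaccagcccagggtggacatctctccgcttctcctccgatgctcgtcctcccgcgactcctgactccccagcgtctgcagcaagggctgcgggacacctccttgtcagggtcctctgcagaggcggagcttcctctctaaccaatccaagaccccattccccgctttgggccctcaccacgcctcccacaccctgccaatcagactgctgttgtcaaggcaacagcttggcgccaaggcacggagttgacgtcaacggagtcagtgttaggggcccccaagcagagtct
Mest: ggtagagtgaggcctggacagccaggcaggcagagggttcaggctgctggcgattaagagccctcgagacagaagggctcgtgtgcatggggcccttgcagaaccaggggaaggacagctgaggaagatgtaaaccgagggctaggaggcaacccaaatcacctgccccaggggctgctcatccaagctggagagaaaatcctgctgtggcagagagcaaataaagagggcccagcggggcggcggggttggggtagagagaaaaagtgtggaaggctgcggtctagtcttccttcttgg
Airn: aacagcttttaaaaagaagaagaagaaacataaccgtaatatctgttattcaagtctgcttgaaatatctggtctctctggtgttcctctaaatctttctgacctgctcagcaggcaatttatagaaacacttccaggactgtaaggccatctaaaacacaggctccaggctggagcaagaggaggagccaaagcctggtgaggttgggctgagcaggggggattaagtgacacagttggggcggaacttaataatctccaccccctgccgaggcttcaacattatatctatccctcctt
Igf2r: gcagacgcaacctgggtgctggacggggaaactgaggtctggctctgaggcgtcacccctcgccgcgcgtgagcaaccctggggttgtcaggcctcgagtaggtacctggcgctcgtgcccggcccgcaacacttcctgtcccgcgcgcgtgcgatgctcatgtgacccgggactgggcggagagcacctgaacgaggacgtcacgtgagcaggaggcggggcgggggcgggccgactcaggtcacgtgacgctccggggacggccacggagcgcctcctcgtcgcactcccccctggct
Nnat: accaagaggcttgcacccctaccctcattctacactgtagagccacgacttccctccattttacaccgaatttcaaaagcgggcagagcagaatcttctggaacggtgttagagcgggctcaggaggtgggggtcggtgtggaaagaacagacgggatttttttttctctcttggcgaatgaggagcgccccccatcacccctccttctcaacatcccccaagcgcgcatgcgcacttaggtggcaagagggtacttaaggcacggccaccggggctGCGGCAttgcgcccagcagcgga
Inpp5f: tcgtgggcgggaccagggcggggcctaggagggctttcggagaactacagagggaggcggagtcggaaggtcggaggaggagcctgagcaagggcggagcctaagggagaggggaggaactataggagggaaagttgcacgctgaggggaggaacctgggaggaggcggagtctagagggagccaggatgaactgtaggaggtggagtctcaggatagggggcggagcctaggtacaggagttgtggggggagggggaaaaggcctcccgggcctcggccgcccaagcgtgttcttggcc
Meg3: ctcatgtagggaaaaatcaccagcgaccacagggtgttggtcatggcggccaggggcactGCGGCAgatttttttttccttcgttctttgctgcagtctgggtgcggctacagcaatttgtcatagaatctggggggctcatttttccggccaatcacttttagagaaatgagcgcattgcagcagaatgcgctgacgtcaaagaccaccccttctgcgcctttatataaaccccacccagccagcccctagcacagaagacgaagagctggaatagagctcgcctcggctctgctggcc
In these windows Nnat and Meg3 held the 6 letters 1 time each and the other 5 promoters not at all, which says only that the letters are not within these 300 bases. RefSeq promoters were at hand for 32 members, and 7 of them (21.9%) held the letters, against 11.6% of all 32851 promoters of the same length. The members with them were Meg3, Zim1, Copg2, Grb10, Plagl1, Nnat and Mcts2. The CpG dinucleotide count was 34 for Igf2r, 17 for Usp29 and Nnat, 15 for Inpp5f, 13 for Meg3, 8 for Mest and 3 for Airn, with a median of 13 over the 32 members and 7 over all promoters.

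To compare genes, CPM values were divided by the exon length in kb (CPM per kb). The 41 members spanned a range from 0.0127 for Airn to 126 for Mest as means over the 4 libraries. The 39 members past the filter on low counts had a median of 4.59 CPM per kb, against 3.31 over all 20350 tested loci.

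Mest, a hydrolase-like protein expressed from the paternal allele, was the highest member, with 127.9 and 127.7 CPM per kb in control and 125.5 and 123.5 in morphine libraries. Slc38a4, an amino acid transporter, had 69.3 and 69.2 in control and 65.4 and 68.3 in morphine libraries. Impact, a regulator of the translational stress response, had 66.5 and 63.2 in control and 62.3 and 64.3 in morphine libraries. These top 3 were far above the member median in every library.

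Copg2, a subunit of the COPI vesicle coat, had 57.2 and 56.3 CPM per kb in control and 50.8 and 53.1 in morphine libraries. The retrotransposon-derived Peg10 had 49.6 and 43.7 in control and 40.7 and 44.2 in morphine libraries. Rian, a host of small nucleolar RNAs, had 31.7 and 31.8 in control and 31.5 and 33.7 in morphine libraries. Of these, the Copg2 libraries did not overlap between conditions, whereas those of Peg10 and Rian did.

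Mcts2, a retrogene inside an intron of H13, had 33.7 and 31.8 CPM per kb in control and 28.7 and 28.7 in morphine libraries. Snrpn, a spliceosomal protein gene, had 25.5 and 24.3 in control and 25.5 and 26.6 in morphine libraries. At the other end, Airn had 1, 0, 1 and 1 counts and Kcnq1 had 1, 2, 3 and 2 counts (control 1, control 2, morphine 1, morphine 2). These 2 did not pass the filter and were not tested. Airn is known as a largely unspliced RNA, and the exons counted here cover 2188 bp of its locus of 118574 bp.

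**Figure D1:**
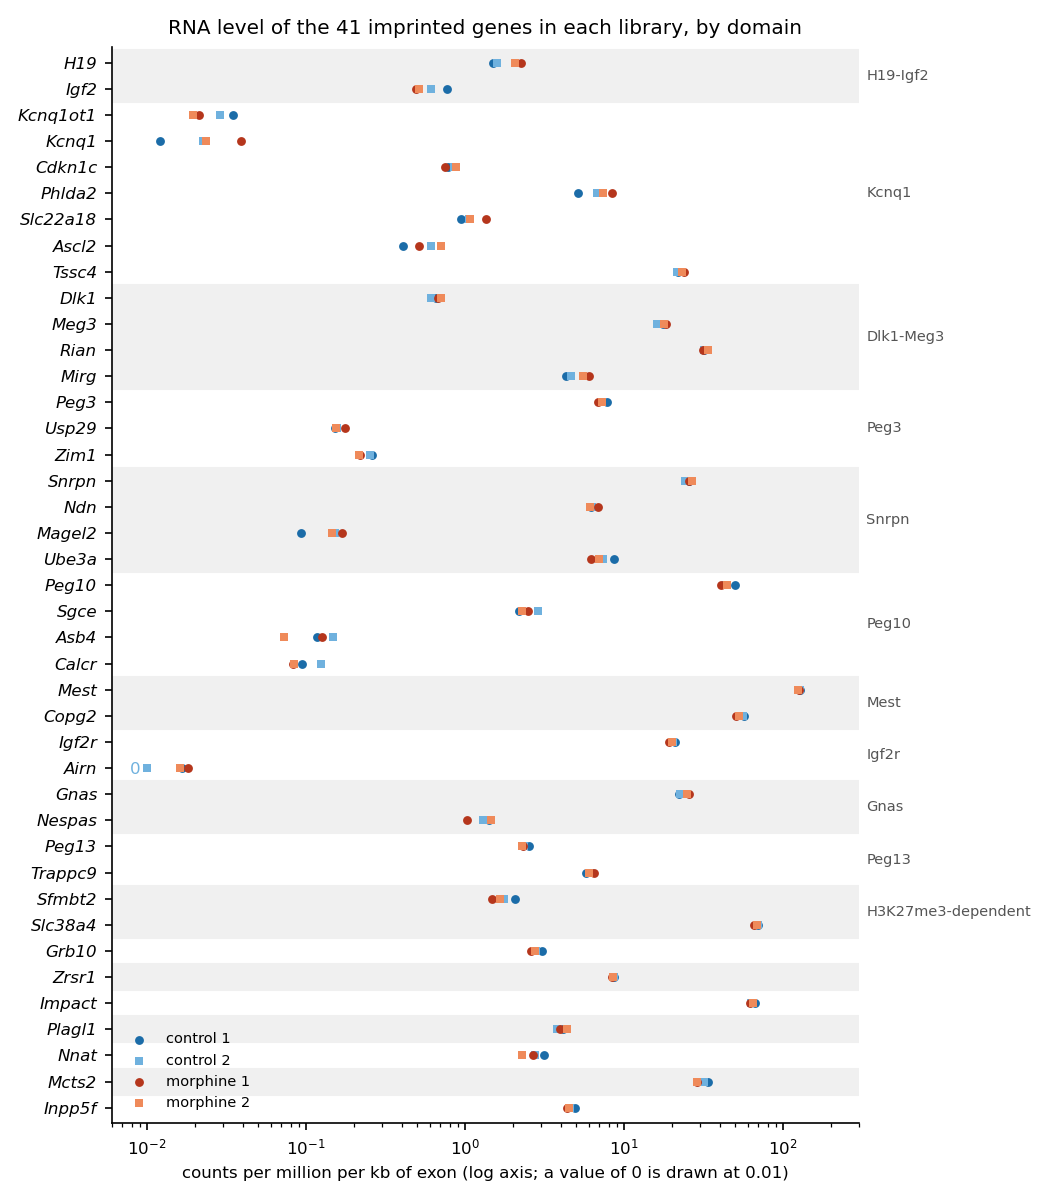
RNA level of each of the 41 imprinted genes in the 4 RNA-Seq libraries, as CPM per kb of exon on a log axis, with genes grouped by domain and control in blue, morphine in red. The members spread from 0.0127 (Airn) to 126 (Mest) as means, and for most genes the 4 libraries lie close together.

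Of the 39 tested members, Mirg passed the test (edgeR's quasi-likelihood test, Benjamini-Hochberg adjusted p at or under 0.05 over all 20350 loci) and was higher after morphine, and 0 members passed as lower. Over all tested loci 0.614% were called higher and 0.904% lower. At an unadjusted p of 0.05, 5 members (12.8%) were higher and 7 (17.9%) lower, against 9.70% and 10.8% of all loci. DESeq2 called 0 members. The median log2 fold change of the tested members was -0.0377 and that of all loci 0.0013, and 23 of 39 members had a fitted change below 0, against 49.7% of all loci.

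By the order of the libraries alone, both morphine libraries were above both control libraries in 9 members (23.1%) and below them in 17 (43.6%), and the libraries overlapped in 13. Over all tested loci these shares were 26.0% above and 26.8% below. When all loci were split into 4 classes of equal size by exon GC content, the median log2 fold change was -0.142 in the class with the lowest GC and -0.045, 0.041 and 0.137 in the next 3. The members' medians in the same classes were -0.098, -0.096, -0.067 and 0.216, over 9, 11, 9 and 10 members, so in the third class the members' median was below 0 and that of all loci above 0. The members' median exon GC content was 47.6%, against 49.7% over all loci. With smooth trends in length and GC removed from each library, the members' median was 0.0021 and 19 of 39 were below 0.

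**Figure D2:**
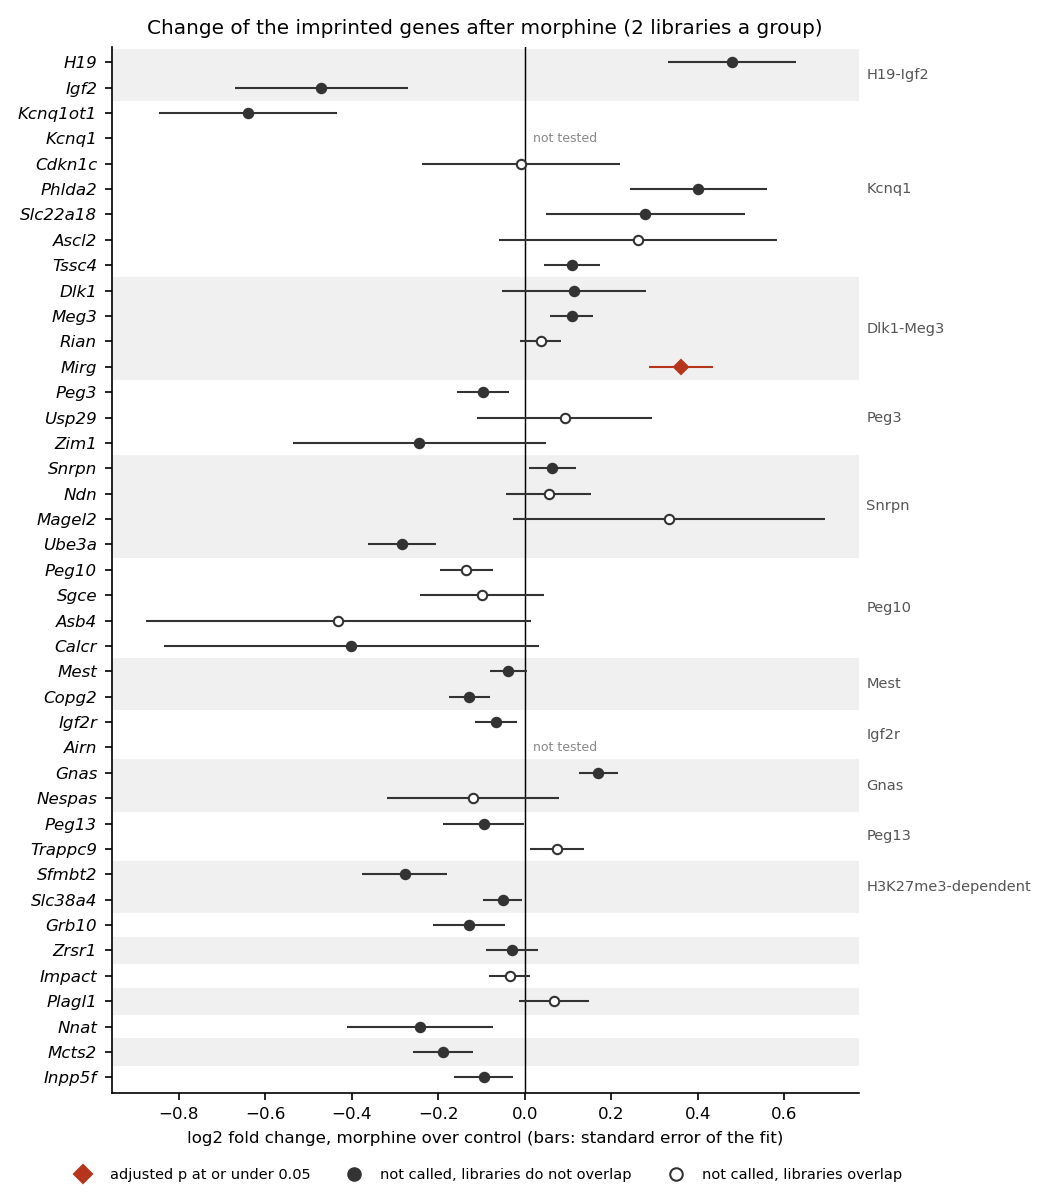
Log2 fold change of morphine over control for each imprinted gene, with the standard error of the fit as bars and 2 libraries a group. The red diamond is Mirg, at 0.36, and filled black points are genes whose libraries did not overlap between conditions but whose adjusted p was above 0.05.

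**Figure D3:**
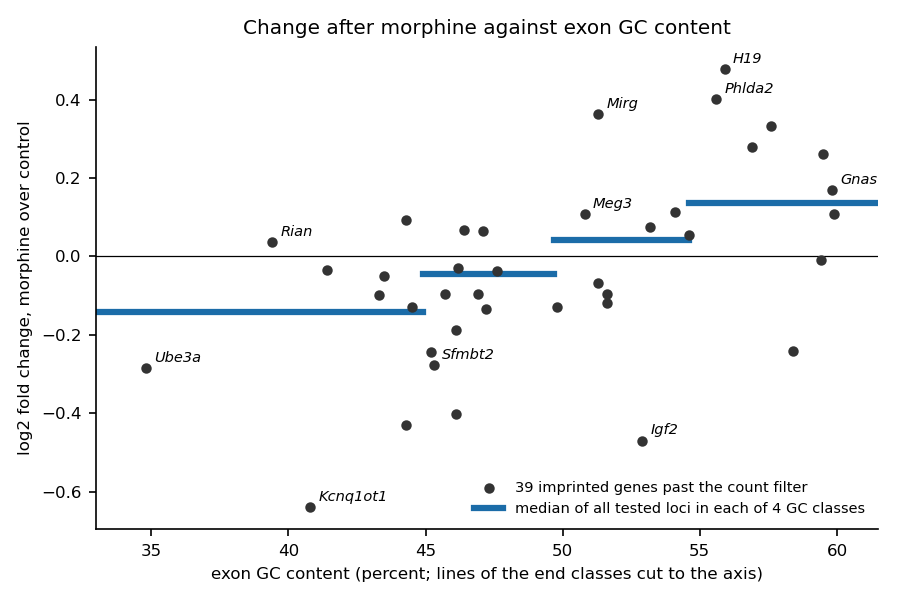
Log2 fold change of the 39 tested imprinted genes (points) against the GC content of their exons in percent, with the median of all tested loci in each of the 4 GC classes as a blue line. The lines step from -0.142 to 0.137, and 10 members lie in the class with the highest GC content, with a median of 0.216.

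In the Dlk1-Meg3 domain on chromosome 12 the paternal allele expresses Dlk1, a Notch-related membrane ligand, and the maternal allele expresses a series of non-coding RNAs, Meg3, Rian and Mirg, of which the last is a host of microRNAs. The domain is used as a gauge of the developmental potential of pluripotent stem cells. Mirg (chr12:109729764-109749458, plus strand) had 22.6 and 24.2 CPM in control and 31.4 and 28.9 CPM in morphine libraries, from 621, 713, 793 and 814 counts. The lower of the morphine values exceeded the higher of the control values. Mirg rose 1.29-fold (log2 fold change 0.36, standard error 0.07, adjusted p 0.0423 by edgeR), from 23.4 ± 1.14 to 30.1 ± 1.72 CPM (SD, n = 2). The call was lost without control library 1 (adjusted p 0.0757), without morphine library 1 (adjusted p 0.387) and under DESeq2 (adjusted p 0.0653), always with a log2 fold change of at least 0.30. The exons of Mirg had a GC content of 51.3%, and with length and GC trends removed its log2 fold change was 0.35 with an adjusted p of 0.0463. The span of the locus holds 7 microRNA loci of the table.

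Meg3 (chr12:109540996-109571729) had 318 and 293 CPM in control and 333 and 326 CPM in morphine libraries. The morphine libraries were above the control libraries, with a log2 fold change of 0.11 (standard error 0.05) and an adjusted p of 0.238 by edgeR. Meg3 was called higher with the length trend removed (log2 fold change 0.24, adjusted p 0.0356) and with both trends removed and the replicate number as a block (0.15, adjusted p 0.0138), but not with both trends removed alone (adjusted p 0.108). Rian (chr12:109603945-109661716) had 296 and 297 CPM in control and 293 and 315 CPM in morphine libraries. The Rian libraries overlapped, with a log2 fold change of 0.04 and an adjusted p of 0.709. With length and GC trends removed Rian was called higher, at a log2 fold change of 0.25 and an adjusted p of 0.0127, and its exon GC content was 39.4%, the second lowest of the tested members. Dlk1 had 87, 87, 82 and 95 counts, or 3.17 and 2.96 CPM in control and 3.24 and 3.38 CPM in morphine libraries, with a log2 fold change of 0.11 and an adjusted p of 0.755. For Dlk1 the value with length and GC trends removed was 0.05. Rtl1 and Dio3, a retrotransposon-derived gene and a thyroid hormone deiodinase gene of the same domain that are not among the members, had overlapping libraries and log2 fold changes of -0.07 and -0.08, with adjusted p of 0.879 and 0.871. The 4 members thus had fitted changes above 0, from 0.04 to 0.36, and the other 2 genes below 0.

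In the H19-Igf2 domain on chromosome 7, H19, a maternally expressed non-coding RNA, and Igf2, the paternally expressed growth factor, compete for shared enhancers. H19 (chr7:142575530-142578146) had 95 and 107 counts in control and 131 and 133 in morphine libraries, or 3.46 and 3.64 CPM against 5.18 and 4.73 CPM. The morphine libraries were above the control libraries, at 1.39-fold (log2 fold change 0.48, standard error 0.15), and the adjusted p of 0.105 by edgeR did not pass. Igf2 (chr7:142650768-142658804) had 86 and 73 counts in control and 50 and 58 in morphine libraries, or 3.13 and 2.48 CPM against 1.98 and 2.06 CPM. Its morphine libraries were below the control libraries, with a log2 fold change of -0.47 (standard error 0.20) and an adjusted p of 0.215. Without control library 1 the Igf2 value was -0.30, and without control library 2 it was -0.62. The 2 genes thus had fitted changes of opposite sign on low counts, and neither passed.

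In the Kcnq1 domain the paternal non-coding RNA Kcnq1ot1 starts inside Kcnq1, a potassium channel gene, and silences neighbours in cis, among them the cell cycle inhibitor Cdkn1c, the growth-restraining Phlda2, the transporter Slc22a18 and the trophoblast transcription factor Ascl2. Kcnq1ot1 (chr7:143213111-143296547) was counted over a single block of 83437 bp that lies in introns of Kcnq1 on the other strand, and although the library kit keeps the strand, no source stated whether counting used it. It had 80 and 71 counts in control and 45 and 46 in morphine libraries, or 2.91 and 2.41 CPM against 1.78 and 1.63 CPM. The morphine libraries were below the control libraries, and the fitted value on the log2 scale was -0.64 with a standard error of 0.21, the lowest of the 39, at an adjusted p of 0.117 by edgeR. Its exon GC content was 40.8%, and with length and GC trends removed the log2 fold change was -0.38 with an adjusted p of 0.476.

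Phlda2 (chr7:143501548-143502524) had 104 and 146 counts in control and 157 and 152 in morphine libraries, or 3.79 and 4.96 CPM against 6.21 and 5.40 CPM. The libraries did not overlap, and the log2 fold change of 0.40 (standard error 0.16) had an adjusted p of 0.183 by edgeR. Without control library 1 the value was 0.22, and without control library 2 it was 0.62 and called (adjusted p 0.0178). Slc22a18 had 40 and 48 counts in control and 53 and 47 in morphine libraries, or 1.46 and 1.63 CPM against 2.095 and 1.67 CPM, with a log2 fold change of 0.28 and an adjusted p of 0.535. Without morphine library 1 the value was 0.11, and without morphine library 2 it was 0.44. Its counts were nearly alike in control 2 and morphine 2, so that the order of the CPM values rests on library size. Cdkn1c had 42, 49, 37 and 48 counts (1.53 and 1.67 CPM in control, 1.46 and 1.71 in morphine libraries), with overlapping libraries and a log2 fold change of -0.01. Ascl2 had 18, 29, 21 and 32 counts, or 0.655 and 0.985 CPM in control and 0.830 and 1.14 in morphine libraries, also overlapping. Tssc4, which encodes a spliceosome assembly factor, had 30.6 and 30.2 CPM in control and 33.3 and 32.2 CPM in morphine libraries, with a log2 fold change of 0.11 and an adjusted p of 0.371, and with length and GC trends removed the value was -0.07. None of the 6 tested genes of the domain passed the test.

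In the Snrpn domain, Ube3a, a ubiquitin ligase whose imprinting is known from neurons, had 73.0 and 62.8 CPM in control and 52.5 and 58.8 CPM in morphine libraries. Both morphine libraries were below both control libraries, at 0.821-fold (log2 fold change -0.28, standard error 0.08) and an adjusted p of 0.0799 by edgeR. Without control library 1 the log2 fold change was -0.18 (adjusted p 0.345), and without control library 2 it was -0.38 and called (adjusted p 0.000256). It passed by edgeR's exact test (adjusted p 0.0418), and with length and GC trends removed its log2 fold change was 0.01, the exon GC content of 34.8% being the lowest of the members. Snrpn had 92.4 and 88.4 CPM in control and 92.4 and 96.5 CPM in morphine libraries, control 1 and morphine 1 being nearly equal (log2 fold change 0.06, adjusted p 0.545 by edgeR). The neuronal growth suppressor Ndn and the ubiquitination cofactor Magel2 had overlapping libraries, at log2 fold changes of 0.06 and 0.33, that of Ndn being -0.05 with length and GC trends removed. Magel2 had 12 to 21 counts a library, and its value was 0.03 without control library 1 and 0.74 without control library 2.

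Gnas, the stimulatory G protein alpha subunit, had 209 and 210 CPM in control and 239 and 232 CPM in morphine libraries. The libraries did not overlap, and the log2 fold change was 0.17 (standard error 0.05, adjusted p 0.0747 by edgeR). With length and GC trends removed, from exons of 59.8% GC, the value was 0.04, and with the length trend alone removed Gnas was called higher, at 0.25 (adjusted p 0.0292). It was also called without a count filter (adjusted p 0.0311) and with 1 locus per gene name (adjusted p 0.0407). In the Peg10 domain the fitted changes ran from -0.43 for Asb4 to -0.10 for Sgce. Asb4 had 7 to 15 counts a library, and its value was -0.86 without morphine library 1 and -0.07 without morphine library 2. For Sgce, the value with length and GC trends removed was 0.01. Peg10 itself had 331 and 292 CPM in control and 272 and 295 CPM in morphine libraries, overlapping, with an adjusted p of 0.242. Calcr, the calcitonin receptor, had 10 and 14 counts in control and 8 and 9 in morphine libraries, a log2 fold change of -0.40 with a standard error of 0.43 and an adjusted p of 0.651.

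Of the genes known for imprinting by H3K27me3, Sfmbt2, a Polycomb-group protein, had 18.96 and 16.3 CPM in control and 13.6 and 15.4 CPM in morphine libraries. The libraries did not overlap, and the log2 fold change of -0.28 (standard error 0.10) had an adjusted p of 0.142 by edgeR. It was -0.16 (adjusted p 0.453) with length and GC trends removed and -0.17 without control library 1, and Sfmbt2 was called lower without control library 2 (-0.38, adjusted p 0.0145). Its introns hold a large cluster of microRNA genes. Slc38a4 had 290 and 289 CPM in control and 273 and 286 CPM in morphine libraries, a log2 fold change of -0.05 with an adjusted p of 0.565. Neither passed the test.

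In the Mest domain, Mest had 355 and 355 CPM in control and 348 and 343 CPM in morphine libraries (log2 fold change -0.04, adjusted p 0.665 by edgeR). Copg2, which overlaps Mest on the other strand, had 232 and 228 CPM in control and 206 and 215 CPM in morphine libraries (log2 fold change -0.13, adjusted p 0.152). With length and GC trends removed the log2 fold change was -0.0053 for Mest and -0.0284 for Copg2. Mcts2 had 26.9 and 25.4 CPM in control and 22.9 and 23.0 CPM in morphine libraries, at a log2 fold change of -0.19 and an adjusted p of 0.163. Impact had 228 and 217 CPM in control and 214 and 221 CPM in morphine libraries, with a log2 fold change of -0.04. Of the members not yet given, Peg3, Zim1, Igf2r, Peg13, Grb10, Zrsr1, Nnat and Inpp5f had morphine libraries below control libraries, at log2 fold changes from -0.24 (Zim1 and Nnat) to -0.03 (Zrsr1). Usp29, Nespas, Trappc9 and Plagl1 had overlapping libraries, as did Sgce and Asb4 above. None of these passed.

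Of 12 genes for factors that guard imprints or place H3K27me3, 1 passed the test as lower and 0 as higher. Over all tested loci 0.904% were called lower and 0.614% higher. A fitted change below 0 was found in 9 of the 12, against 49.7% of all loci. The called gene was Smchd1, a structural maintenance of chromosomes protein that keeps some imprinted clusters silent. Smchd1 had 153 and 146 CPM in control and 120 and 128 CPM in morphine libraries, with no overlap. It fell to 0.828-fold (log2 fold change -0.27, standard error 0.05, adjusted p 0.0384 by edgeR), from exons of 42.5% GC. The call was lost without morphine library 1 (adjusted p 0.387), and with length and GC trends removed the log2 fold change was -0.11 (adjusted p 0.233). Zfp57 had 710 and 726 CPM in control and 765 and 763 CPM in morphine libraries (log2 fold change 0.09, adjusted p 0.235), and Zfp445, a further zinc finger gene of imprint maintenance, had 145 and 137 against 113 and 125 CPM (log2 fold change -0.25, adjusted p 0.0581). Zfp445 passed as lower by DESeq2 (adjusted p 0.0329) and by edgeR's exact test (adjusted p 0.0242), and with length and GC trends removed its log2 fold change was -0.11 (adjusted p 0.259). The PRC2 subunits Ezh2, Eed and Suz12 had log2 fold changes of -0.15, -0.06 and -0.18, with adjusted p of 0.117, 0.563 and 0.107. With length and GC trends removed these were -0.09, -0.04 and -0.03, and Suz12 passed as lower without control library 2 (adjusted p 0.0204), without morphine library 2 (adjusted p 0.0400) and without a count filter (adjusted p 0.00565), the last of which also called Ezh2 (adjusted p 0.0486). Dnmt1 and Uhrf1, which copy DNA methylation after replication, had log2 fold changes of -0.04 and -0.02. With length and GC trends removed both were at -0.09, and Dnmt1 was at 0.02 with the length trend alone removed.

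A peak here is a region that the authors' peak caller found in 1 library, with a score of -10 log10 of its p-value, and no peak in the lists scored under 50. A peak within 1 kb of the 5' end was present at 10 and 11 members in control and 9 and 11 in morphine libraries. The means were 10.5 ± 0.707 and 10 ± 1.41 (SD, n = 2), a difference of -0.5 with an exact two-sided permutation p of 1, where 2 libraries a group cannot go below 0.33. These counts were 22 to 26.8% of the members, whereas 12.3 to 13.2% of all genes had such a peak in the same libraries. A peak anywhere over the locus was present at 13 and 16 members in control and the same numbers in morphine libraries. Peaks covered 1.81 and 2.57% of the members' span in control and 1.65 and 2.37% in morphine libraries, with an exact permutation p of 0.667, against 1.5 and 1.81% of the span of all genes in control and 1.41 and 1.72% in morphine libraries. The spread within a condition exceeded the difference between conditions in each of these measures, and in each condition the library with fewer peaks had the lower values.

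At the 5' end of the locus, 8 members (19.5%) had a peak in all 4 libraries, against 8.62% of all genes, and 28 (68.3%) in no library, against 82.4%. Some of these 5' ends lay far from the nearest annotated start (309958 bp for Snrpn, 30284 for Plagl1, 12320 for Igf2r, 4413 for Slc38a4). With annotated 5' ends a peak was present at 11 and 12 members in control and 10 and 11 in morphine libraries. No member had a peak in both morphine and no control library, a pattern of 0.773% of all genes, and none had the converse, at 0.456%. Over the locus, 11 members (26.8%) had a peak in all 4 libraries, against 11.0% of all genes, and 21 (51.2%) in none, against 77.5%. Again 0 members separated the conditions in either direction (0.892 and 0.725% of all genes). These members are not all separate peaks. Phlda2 and Slc22a18, Mest and Copg2, and Igf2r and Airn share peaks over the locus, as Peg3 and Usp29 do at the 5' end. The 8 members with a constant peak at the 5' end were Phlda2, Peg3, Usp29, Mest, Airn, Nespas, Nnat and Inpp5f. Their RNA levels ran from 0.0127 CPM per kb for Airn to 126 for Mest, so a peak was found at the most and the least expressed member alike.

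**Figure D4:**
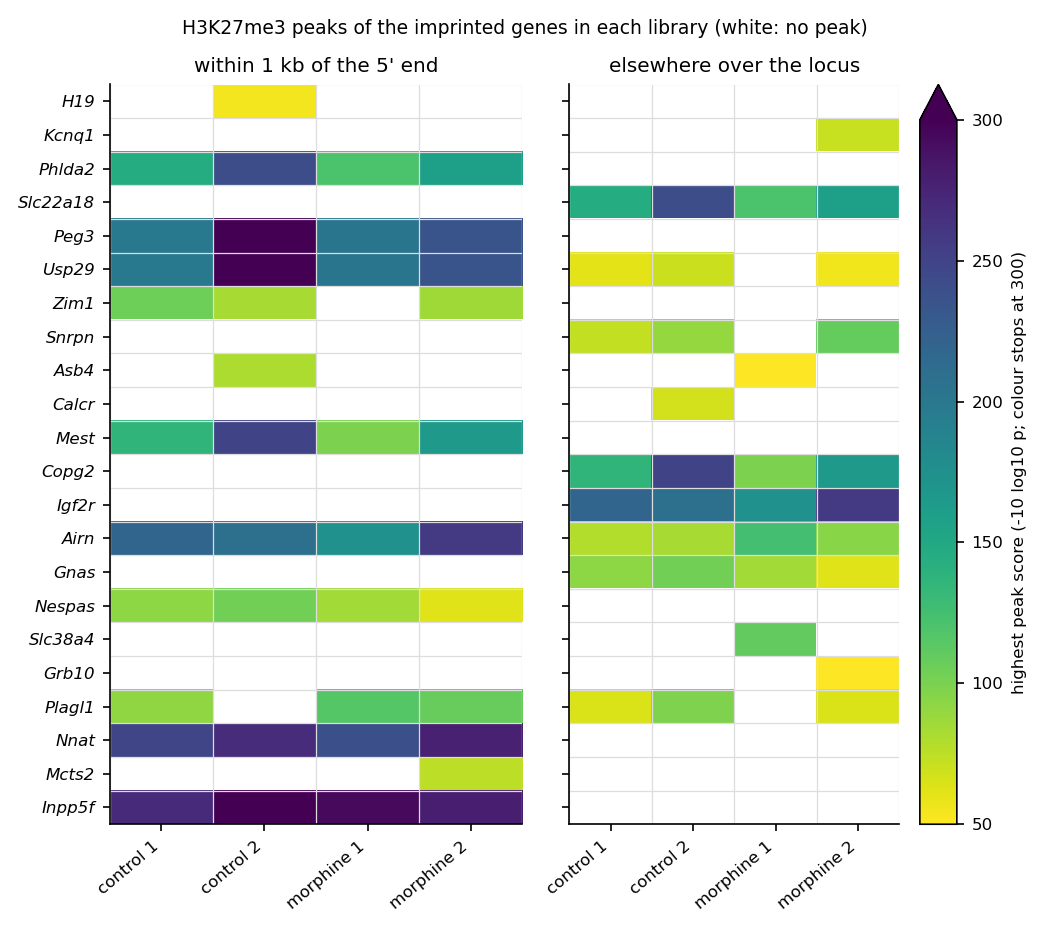
Highest H3K27me3 peak score (-10 log10 p, colour) of each imprinted gene with any peak, for each ChIP-Seq library, split into peaks within 1 kb of the 5' end (left) and peaks elsewhere over the locus (right), with white where no peak was listed. Phlda2, Peg3, Usp29, Mest, Airn, Nespas, Nnat and Inpp5f have a peak at the 5' end in all 4 columns, and no row has both morphine columns filled with both control columns white.

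Inpp5f, a phosphoinositide phosphatase gene with a paternally expressed short form, had the highest scores. Its peak scored 269 and 512 in control and 293 and 279 in morphine libraries, and was listed at chr7:128611350-128614101 in morphine library 1. Its left edge in the 4 libraries lay between 15 bp before and 371 bp after the 5' end. Nnat, a membrane proteolipid gene within an intron of Blcap, had scores of 247 and 268 in control and 239 and 277 in morphine libraries. Its peak, at chr2:157558126-157561346 in control library 1, covered the whole promoter window in every library. Scores depend on the depth of a library as well as on enrichment, and in both genes the scores of the conditions overlapped.

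Peg3, a zinc finger protein gene, and Usp29, a ubiquitin protease gene, share 1 divergent promoter and 1 peak. It scored 199 and 349 in control and 203 and 235 in morphine libraries and began 40 to 187 bp inside Usp29, so that all of it lay on the Usp29 side of the shared promoter. Zim1, the maternally expressed neighbour, had a peak across its 5' end with scores of 105 and 82.3 in control and 85.2 in morphine library 2, and none in morphine library 1, the library with the fewest peaks.

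Mest had a peak over its whole promoter window that scored 137 and 249 in control and 99.7 and 166 in morphine libraries. It lay at chr6:30732968-30736837 in control library 2 and reached over the 3' end of Copg2, which had no peak at its own 5' end. Airn, the paternal antisense RNA that silences Igf2r, had a peak that scored 219 and 207 in control and 173 and 257 in morphine libraries, at chr17:12739826-12745158 in control library 1. It covered the whole Airn promoter window and lies in an intron of Igf2r. In Igf2r, the scavenger receptor of the growth factor IGF2, the locus of the table began 12320 bp before the annotated start. At the annotated start a further peak was listed in every library, with scores of 78.5 and 83.2 in control and 125 and 94.8 in morphine libraries, for example chr17:12767396-12769690 in control library 1.

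Phlda2 was the single gene of the Kcnq1 domain with a peak at its 5' end. The peak scored 145 and 241 in control and 121 and 158 in morphine libraries, spanned the whole gene (100% of the locus in every library) and reached the 3' end of Slc22a18. Nespas, antisense to the Nesp transcript of Gnas, had a peak that began 584 to 745 bp before its 5' end and extended over the body of Gnas. It scored 92.4 and 103 in control and 84.9 and 62.02 in morphine libraries. Gnas itself had no peak at the 5' end of its locus.

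**Figure D5:**
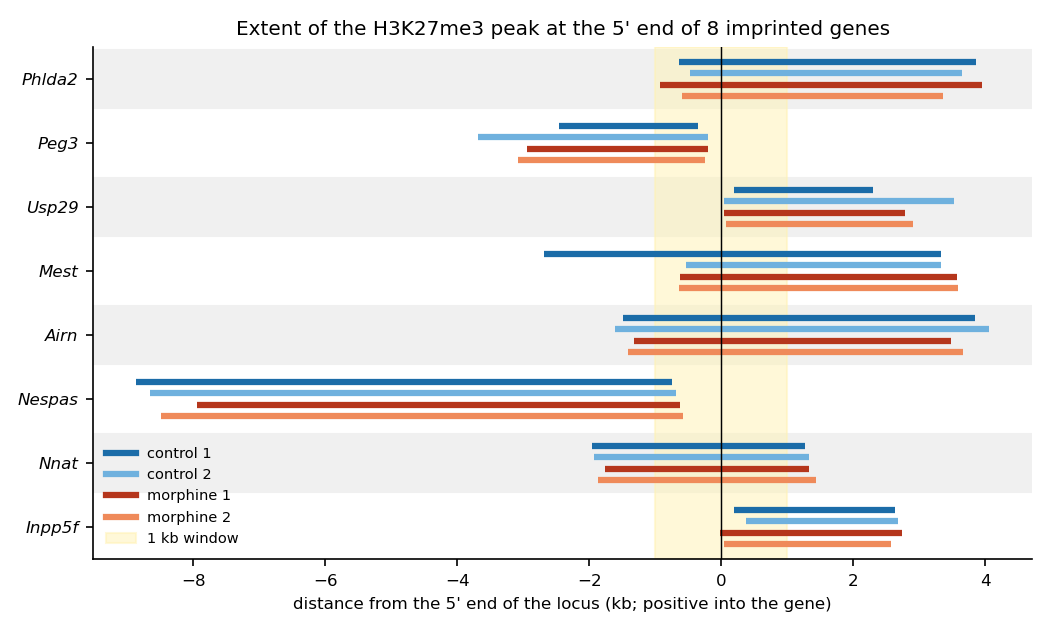
Extent of the H3K27me3 peak at the 5' end of the 8 imprinted genes with a peak in all 4 libraries, in kb from the 5' end of the locus with positive values into the gene, 1 bar a library (control blue, morphine red) and the 1 kb window shaded. Peg3 and Usp29 share 1 peak that begins on the Usp29 side, and the Nespas peak begins 584 to 745 bp before the 5' end.

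The peaks at the other 5' ends were listed in some libraries only. Plagl1, a zinc finger transcription factor gene, had a peak in control library 1 (score 91.8) and in both morphine libraries (116 and 108), and none in control library 2. This 5' end of the locus lay 30284 bp from the nearest annotated start, where control library 1 alone had a peak (score 63.9). H19 had one in control library 2 alone, with a score of 54.5, close to the lowest in the lists. Asb4 had one in control library 2 (81.0), with another further inside the gene in morphine library 1 (50.9), and Mcts2 one in morphine library 2 (74.5). Of the genes known for imprinting by H3K27me3, Sfmbt2 had no peak in any library, and Slc38a4 had a single peak, in morphine library 1 (score 110, chr15:97053269-97056126), which includes its annotated start. Dlk1, Meg3, Rian and Mirg had no peak in any library, nor did Igf2, Kcnq1ot1, Cdkn1c, Ascl2 and Tssc4, nor did Ube3a, Peg10, Sgce, Ndn, Magel2, Peg13, Trappc9, Zrsr1 and Impact. Kcnq1 and Grb10 had 1 peak each inside the gene, in morphine library 2, and Calcr had 1 in control library 2. Snrpn had peaks inside its long locus in 3 libraries and none in morphine library 1. A peak missing from a list is a peak that did not reach the score of 50, and does not show that the mark was absent.

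Mirg, the member that passed the RNA test, thus had no listed peak in either condition. Of the 8 members with a constant peak at the 5' end of the locus, Airn was too low to test. The other 7 did not pass, with log2 fold changes from -0.24 for Nnat to 0.40 for Phlda2. With length and GC trends removed these 2 values were -0.41 and 0.27.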

How the data were processed

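H3K27me3 ChIP-Seq and polyA RNA-Seq were each done in 2 control and 2 morphine libraries of mESCs. The authors deposited, per library, a list of peaks called with MACS on mm10 with a score of -10 log10 of the p-value, without read depth, and, for the RNA-Seq libraries, raw read counts per locus from HISAT2 2.1.0, StringTie 1.3.6 and featureCounts 1.6.4 (per the labels). The RNA-Seq kit keeps the strand, but whether the counting used it is not given in the sources used here, so that antisense pairs (Mest and Copg2, Igf2r and Airn, Kcnq1 and Kcnq1ot1, Gnas and Nespas) are uncertain. The same holds for members that overlap other named loci on the opposite strand, among them Nnat (Blcap), Zrsr1 (B3gnt2), Peg3 (Peg3os), Ube3a and Snrpn. Peg13 lies within Trappc9 and Mcts2 within H13 on the same strand, and how reads shared by overlapping loci were counted is not given either. The table assembled by the authors holds isoforms of 1 gene as separate rows. Loci without a name took 1.88 to 2.4% of counts.

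Counts were filtered with filterByExpr, scaled by TMM and tested on all 20350 loci with edgeR 4.0.16 (quasi-likelihood test, R 4.3.3, Benjamini-Hochberg adjustment, threshold 0.05). The libraries held 25081266 to 29531096 counts, and CPM values are relative to these totals times the TMM factors (0.9885 to 1.009). On simulated counts the fit was checked against known changes. Exon length and GC content came from the table's own exons and the mm10 sequence. Peaks were compared by presence (at least 1 bp within 1 kb of the 5' end, or over the locus) and by covered length, with exact two-sided permutation tests over libraries. Alternatives were edgeR's exact and likelihood ratio tests, DESeq2 1.42.0, other scalings and filters, trends in length and GC removed, a replicate block, left-out libraries and other peak limits. The members, domains and gene lists were chosen with earlier results of these data known. Values are given in every library for members past the threshold, the 5 largest differences in each direction among members whose libraries did not overlap, the 8 members highest per kb, and the H19-Igf2, Kcnq1, Dlk1-Meg3 and H3K27me3-dependent members. Promoter sequences are from RefSeq, GRCm38.p6.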

Additional observations from a re-analysis of the deposited data

How the results depend on the processing

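The number of called members (1, Mirg) was 1 with size factors of the DESeq2 type (RLE), total counts or at least 10 counts in every library, 2 by the exact test, the likelihood ratio test (Mirg and Ube3a in both) and with length and GC trends removed (Rian and Mirg), 3 without a count filter, with the length trend removed and with 1 locus per gene name (an alternative chosen after seeing the data), and 0 by DESeq2 and at an FDR of 0.01. Leaving out 1 RNA-Seq library gave 0 to 6. Calls over all loci moved as well, from 309 of 20350 to 1619 of 21116 without control library 2, 13 of 21224 without morphine library 1 and 1128 of 20350 with the replicate block. Without control library 2 the members called were Mirg and Phlda2 as higher and Kcnq1ot1, Ube3a, Sfmbt2 and Peg10 as lower. With the replicate number as a block 2 members were called (Mirg and Ube3a), and with the block and both trends removed 3. The labels say nothing of a shared batch behind the numbers. The deviations of same-numbered RNA-Seq libraries correlated at 0.0264 over 20350 loci. With 2 libraries a group these deviations mirror each other, so this is a single value that cannot show whether a batch was shared. In ChIP-Seq, library 1 had fewer peaks than library 2 in control (10305 and 13778) and in morphine (8681 and 12282). A shared batch was not tested. The members' median log2 fold change of -0.0377 was -0.0178 with total counts, 0.0021 with length and GC trends removed and 0.0032 with the replicate block added, and ran from -0.0579 to -0.0197 with 1 library left out. Ube3a (0.0055 and 0.0076), Slc38a4 (0.0665 and 0.0666) and Impact (0.1113 in both) turned positive with the trends removed, without and with the block. Sgce (0.0069 and 0.0097), Zrsr1 (0.0443 in both) and Inpp5f (0.0021 and 0.0032) also turned positive, and Tssc4 (-0.0746 and -0.0745) and Ndn (-0.0539 and -0.0543) negative, which makes 8 of 39 members. Leaving out 1 library moved the log2 fold change of 30 of the 39 tested members by over 1.5 times, all but H19, Kcnq1ot1, Tssc4, Mirg, Zim1, Mest, Copg2, Gnas and Mcts2. Sgce ran from -0.2861 to 0.1256, Ndn from -0.0217 to 0.1333, Rian from -0.0133 to 0.0867, Nespas from -0.3984 to 0.1023, Cdkn1c from -0.1265 to 0.0933, Plagl1 from -0.018 to 0.1469 and, of the PRC2 subunits, Eed from -0.1302 to 0.0058. Cdkn1c was also positive (0.0104) with total counts and Igf2r (0.0095) and Dnmt1 (0.0174) with the length trend removed. The cause was not tested.

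The difference in members with a peak at the 5' end, -0.5, was -0.5 in 5 of the 6 other peak limits and -1 with annotated 5' ends, ran from -1.5 to 0.5 with 1 library left out, and was -0.5 within replicate numbers (replicate block). That for peaks over the locus, 0, ran from -1.5 to 1.5. The difference in covered length, -0.18 percentage points, was 0.119 with scores of at least 100 and ran from -0.564 to 0.204 with 1 library left out. The depth of the ChIP-Seq libraries is unknown, and counts of 45 to 133 a library leave the standard errors of H19, Igf2 and Kcnq1ot1 at 0.15 to 0.21.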

Other observations

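A further 35 imprinted genes outside the members were looked up, of which 33 had a locus and 25 were tested. None passed the test by edgeR, whereas 0.614% of all tested loci passed as higher and 0.904% as lower. A fitted change below 0 was found in 17 of 25, against 49.7% of all loci. The median log2 fold change was -0.03, against 0.0013 over all loci. Values with length and GC trends removed were not looked up for these genes. Zdbf2, a paternally expressed gene controlled from a distal methylated region, had 149 and 138 CPM in control and 119 and 135 CPM in morphine libraries (log2 fold change -0.18, adjusted p 0.145). Gab1 and Jade1, known for imprinting by H3K27me3 as Sfmbt2 and Slc38a4 are, had log2 fold changes of -0.13 and -0.17, with adjusted p of 0.121 and 0.0852, and both morphine libraries lay below both control libraries in each. Smoc1, also known for such imprinting, had overlapping libraries and a log2 fold change of 0.07 (adjusted p 0.641).

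Dppa3, a maternal factor that guards imprints in the early embryo, had 20 and 21 counts in control and 28 and 28 in morphine libraries, a log2 fold change of 0.54 with a standard error of 0.29 and an adjusted p of 0.325.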
